A study of Mus musculus with 32 samples.

Results

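The genes described here are 10 core parts of transforming growth factor beta (TGF-beta) signalling, taken by name from the 41388 genes of the count tables: the ligand genes Tgfb1, Tgfb2 and Tgfb3, the receptor genes Tgfbr1, Tgfbr2 and Tgfbr3, and the signal transducer genes Smad2, Smad3, Smad4 and Smad7. All 10 passed the filter on low counts, which kept 16136 genes. Their RNA was measured in primary chondrocytes, the cells that make cartilage. They came from mouse femoral heads at postnatal day 21, were plated at 100000 cells per well and were cultured unpassaged for 4 days. The 4 groups were LG/J males, LG/J females, SM/J males and SM/J females, with 8 libraries each. LG/J and SM/J are inbred strains, LG/J known for good and SM/J for poor healing of ear and cartilage wounds, and no group was treated. The comparisons ask which genes differ between strains, between sexes, and in their strain difference between sexes.

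TGF-beta is secreted in a latent form that is held in the matrix and released by integrins and other factors. The free ligand binds the type II receptor, which activates the type I receptor, and that kinase phosphorylates SMAD2 and SMAD3, which enter the nucleus with SMAD4 and change transcription. In cartilage the pathway is known for keeping articular chondrocytes from hypertrophy and for driving matrix synthesis.

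Total counts were 15840330 to 25571598 per library, and mitochondrial genes took 0.447 to 1.04% in LG/J and 0.45 to 0.773% in SM/J. The cartilage markers Col2a1, Acan and Sox9 were present in every library. All 3 were lowest in LG/J male 1 and LG/J female 1. Col2a1, the main collagen of cartilage, was at 1379 CPM (its count scaled to a common library total) in LG/J male 1 and 629.3 CPM in LG/J female 1, and at 7536 to 14860 CPM in the 14 remaining LG/J libraries, against 4551 to 11830 CPM in SM/J. Acan, the core protein of the main cartilage proteoglycan, was at 67.67 CPM in LG/J male 1, 48.21 CPM in LG/J female 1 and 1177 to 3362 CPM in the rest of LG/J, against 518.1 to 1974 CPM in SM/J. In 6 libraries (LG/J females 4 and 5, SM/J males 2 and 3, SM/J females 3 and 4) the female transcript Xist and the male transcript Ddx3y were present together. Xist was at 16.31 to 54.03 CPM in them, and Ddx3y at 19.58 to 118.7 CPM. They are called the Xist+Ddx3y libraries below, and several results are given with and without them or the LG/J pair numbered 1. In 6 pairs of libraries of 1 group (LG/J males 2 with 3 and 4 with 5, LG/J females 4 with 5 and 7 with 8, SM/J males 6 with 7, SM/J females 3 with 4) the log2(CPM + 1) values of the kept genes differed with an SD of 0.239 to 0.28, against 0.295 to 1.011 in the other 106 pairs within groups. These pairs were also summed to 1 library each. No label ties a library to its own animal or culture, so p-values reflect the spread of the libraries of a group, which could be technical.

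Levels are CPM scaled with TMM factors, and levels of different genes are compared only as CPM per kilobase of the gene's length in the tables. Among the ligands, the median over the 32 libraries was 32.07 CPM per kilobase for Tgfb2, 29.21 for Tgfb3 and 0.2715 for Tgfb1. Among the receptors it was 14.58 for Tgfbr2, 8.876 for Tgfbr3 and 2.414 for Tgfbr1. Among the SMADs it was 8.401 for Smad2, 4.812 for Smad3, 4.306 for Smad4 and 1.798 for Smad7. Of the 3 ligand genes, 2 were thus at like levels and the third near 0.

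The promoters of 3 genes are shown: the ligand gene with the highest median, the ligand gene with the lowest and the receptor gene that was higher in LG/J. Printed are the 250 bases before the start of each gene in RefSeq on GRCm38.p6, on the gene's own strand, 5′ to 3′. Capitals mark 3 motifs, searched on both strands: CAGAC (the longer form of the SMAD-binding box), GGGCGG (the box bound by SP factors) and TATAAA (the box bound by the general transcription machinery). No base belonged to more than 1 of the motifs shown.
Tgfb2, chr1:186705990-186706239, minus strand: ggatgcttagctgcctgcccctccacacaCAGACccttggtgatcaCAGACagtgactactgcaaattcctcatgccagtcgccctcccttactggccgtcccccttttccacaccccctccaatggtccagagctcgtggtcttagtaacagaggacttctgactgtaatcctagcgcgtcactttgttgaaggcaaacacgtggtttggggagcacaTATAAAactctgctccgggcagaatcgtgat
Tgfb1, chr7:25686752-25687001, plus strand: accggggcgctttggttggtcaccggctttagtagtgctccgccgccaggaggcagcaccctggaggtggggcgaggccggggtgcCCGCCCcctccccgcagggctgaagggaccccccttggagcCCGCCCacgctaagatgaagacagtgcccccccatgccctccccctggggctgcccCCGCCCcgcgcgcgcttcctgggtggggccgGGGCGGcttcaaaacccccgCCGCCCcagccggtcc
Tgfbr1, chr4:47352972-47353221, plus strand: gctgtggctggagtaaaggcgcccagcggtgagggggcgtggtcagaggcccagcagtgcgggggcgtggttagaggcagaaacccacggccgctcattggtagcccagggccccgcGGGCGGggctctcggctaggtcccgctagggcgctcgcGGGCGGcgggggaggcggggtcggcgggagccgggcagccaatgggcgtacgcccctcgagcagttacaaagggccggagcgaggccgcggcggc
The Tgfb2 window held 2 matches to CAGAC and 1 to TATAAA, and none to GGGCGG. The Tgfb1 window held 5 matches to GGGCGG, and the Tgfbr1 window 2, and neither held the other motifs. Of 32851 RefSeq windows of the same length, 42.2% held CAGAC, 32.7% held GGGCGG and 12.4% held TATAAA. Of the 10 genes, 5 had a window in the RefSeq table used. Those of Smad3 (2 matches to GGGCGG), Tgfbr2 (1 match to CAGAC) and a second start of Tgfbr1 (1 match to CAGAC) held none of the other motifs, and these matches are a description of letters only.

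**Figure D1:**
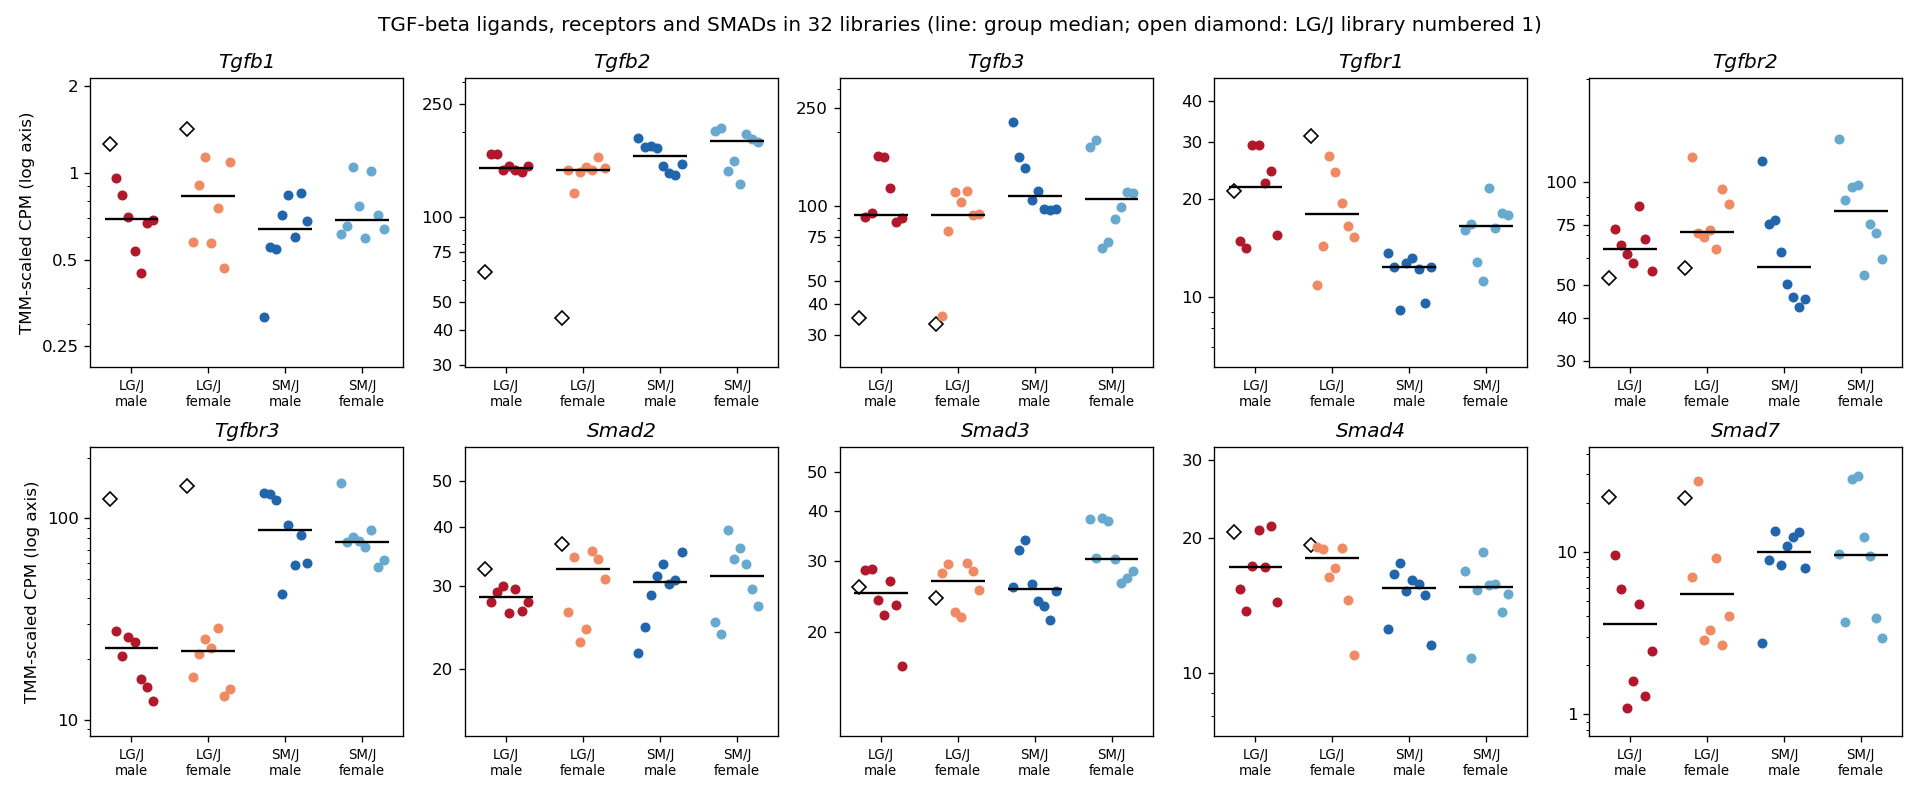
Level of each of the 10 genes in every library (points, TMM-scaled CPM on a log axis), by strain and sex; lines are medians of 8 libraries and open diamonds are the LG/J libraries numbered 1. Tgfbr3 lies at 12.4 to 28.6 CPM in 14 LG/J libraries and at 42.28 to 150.0 CPM in the 16 SM/J libraries, with both diamonds inside the SM/J range.

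Over both sexes, LG/J chondrocytes had more Tgfbr1 RNA and less Tgfbr3 RNA than SM/J chondrocytes. Smad3 RNA was slightly lower in LG/J in the main fit, a call kept in only 4 of 11 alternatives. By the quasi-likelihood test of edgeR with Benjamini-Hochberg adjustment, genes with an adjusted p under 0.05 were called. Of the 10 genes, 3 were called, 1 higher and 2 lower in LG/J. Of all genes tested, 29.9% were called, 16.4% higher and 13.5% lower in LG/J, so the number called among the 10 was close to that background. Without LG/J male 1 and female 1, 3 were again called, with Tgfb2 in place of Smad3, against 32.2% of all genes (17.1% higher and 15.1% lower). Without the 6 Xist+Ddx3y libraries, 2 were called (Tgfbr1 and Tgfbr3), against 23.8% of all genes. With the close pairs summed, the same 2 were called, against 22.1% of all genes. The log2 fold changes of the 10 had a median of -0.12, against 0.02 over all genes.

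Of the 10 genes, Tgfbr3 differed most between strains, with all libraries and without LG/J male 1 and female 1. Tgfbr3 (ENSMUSG00000029287, chromosome 5, 107106570 to 107289629, GRCm38) encodes betaglycan, a co-receptor that presents ligand to the type II receptor. Its level was 12.4 CPM at the lowest, 22.02 CPM in the median and 145.3 CPM at the highest in LG/J, against 42.28, 79.21 and 150.0 CPM in SM/J. The 2 highest LG/J values were 124.7 CPM in male 1 and 145.3 CPM in female 1. The other 14 LG/J libraries lay at 12.4 to 28.6 CPM, below all 16 SM/J libraries. Among all genes kept, 3.11% had strains that did not overlap once those 2 libraries were left out, and 2.62% with all libraries. Tgfbr3 was 2.52-fold lower in LG/J with all libraries (log2 fold change -1.33 ± 0.34, adjusted p = 0.00285 by edgeR's quasi-likelihood test). Without LG/J male 1 and female 1 it was 4.29-fold lower (-2.10 ± 0.18, adjusted p = 1.1e-10, same test). It was called in all 11 alternatives (adjusted p 1.1e-10 to 0.0364, log2 fold change -2.17 to -1.17) and in each of 32 fits that left out 1 library. In these cultures, fewer cells of a type and less RNA per cell cannot be told apart.

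Tgfbr1 (ENSMUSG00000007613, chromosome 4, 47353222 to 47414931) encodes the type I receptor kinase. Its level was 10.91 CPM at the lowest, 20.24 CPM in the median and 31.26 CPM at the highest in LG/J, against 9.11, 12.99 and 21.55 CPM in SM/J. The strains overlapped, with 7 LG/J libraries above every SM/J library and 2 SM/J libraries below every LG/J library. Tgfbr1 was 1.48-fold higher in LG/J (log2 fold change 0.57 ± 0.13, adjusted p = 0.00107 by edgeR's quasi-likelihood test). It was called in all 11 alternatives (adjusted p 0.000218 to 0.035) and whichever library was left out.

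Tgfbr2 (ENSMUSG00000032440, chromosome 9, 116087698 to 116175363) encodes the type II receptor that first binds the ligand. Its level was 52.39 CPM at the lowest, 68.42 CPM in the median and 118.4 CPM at the highest in LG/J, against 43.05, 73.01 and 133.5 CPM in SM/J. The ranges lay almost on each other, and the log2 fold change of -0.04 ± 0.13 was smaller than its error (adjusted p = 0.849, edgeR's quasi-likelihood test). It was not called in any of the 11 alternatives.

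Set against each other per kilobase, the 3 receptor genes made up different shares of their summed level in the strains. In the 14 LG/J libraries other than those numbered 1, Tgfbr3 made up 8.22 to 21.2% (median 15.8%), against 30.2 to 54.6% (median 43.2%) in SM/J. Tgfbr2 made up a median of 71.2% in those LG/J libraries, against 50.1% in SM/J, and Tgfbr1 a median of 14.4%, against 7.7%. In LG/J male 1 and LG/J female 1, Tgfbr3 made up 57.3 and 57.4%, above every SM/J library. The shares add up to 1 whole, so a rise in one lowers the others, and they were not tested.

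**Figure D2:**
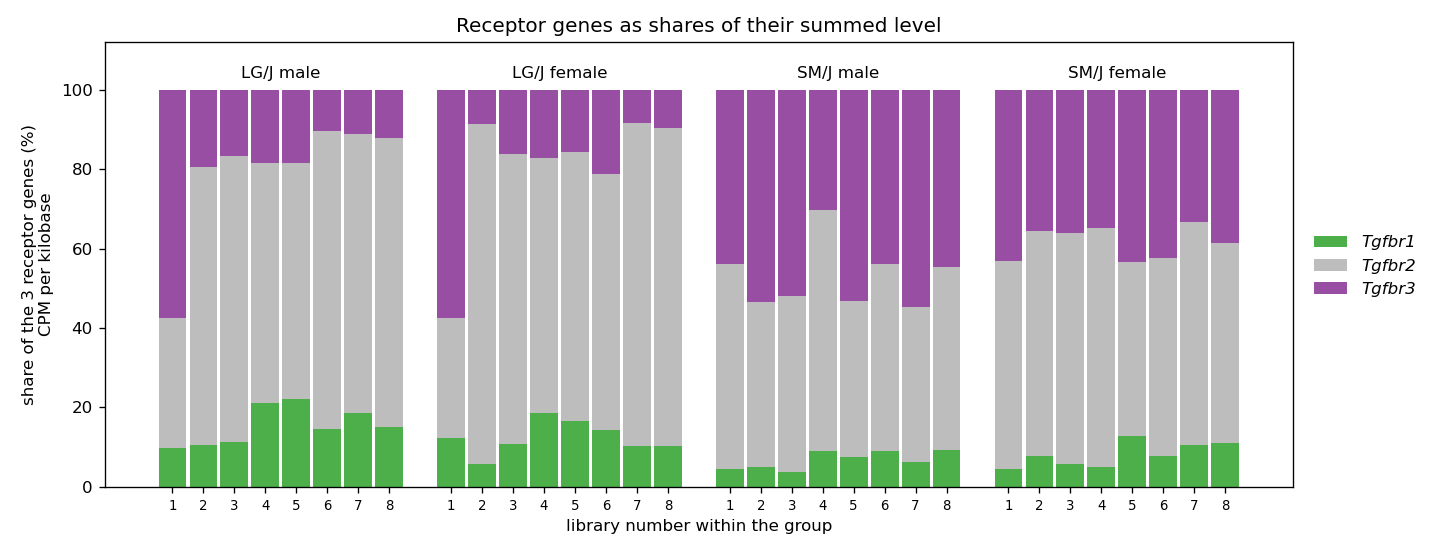
Tgfbr1, Tgfbr2 and Tgfbr3 as percent of their summed CPM per kilobase in each of the 32 libraries (bars), by group and library number. Tgfbr3 takes at most 21.2% in 14 LG/J libraries and at least 30.2% in every SM/J library, while both LG/J libraries numbered 1 exceed 57%.

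The level of other cell types was read from marker lists, and none was tested as the source of a difference above. Of 15 chondrocyte markers, 3 were called higher in LG/J and 0 lower by edgeR's quasi-likelihood test, 10 and 0 without LG/J male 1 and female 1, and 0 and 0 without the 6 Xist+Ddx3y libraries or with close pairs summed. Their summed level was 1945 to 52200 CPM in LG/J, where the libraries numbered 1 held the 2 lowest sums (3092 CPM in the male and 1945 CPM in the female), against 11620 to 43420 CPM in SM/J. Over all genes, 16.4% were called higher and 13.5% lower. Of 12 macrophage markers kept of 14, 0 were called higher and 3 lower in LG/J (2 lower without LG/J male 1 and female 1, 1 without the 6 Xist+Ddx3y libraries and 1 with close pairs summed), with sums of 34.35 to 1899 CPM in LG/J and 93.42 to 1387 CPM in SM/J. Of 10 fibroblast markers, 1 was called higher and 5 lower (1 and 3 without the 6 libraries, 1 and 4 with close pairs summed), with sums of 800.3 to 4997 CPM in LG/J and 1519 to 7286 CPM in SM/J. Of 8 osteoblast markers, 1 was called higher (3 without LG/J male 1 and female 1, and 2 without the 6 libraries or with close pairs summed), and of 8 endothelial markers 4 were kept and 0 called, with endothelial sums of at most 10.54 CPM. Whether any of these shifts had a part in the receptor results was not tested.

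Among the ligands, only Tgfb2 was called in any setting, and not with all libraries in the main fit. Tgfb2 (ENSMUSG00000039239, chromosome 1, 186623186 to 186705992) had a level of 44.14 CPM at the lowest, 146.3 CPM in the median and 167.2 CPM at the highest in LG/J, against 131.0, 175.6 and 205.4 CPM in SM/J. The 2 lowest LG/J values were 63.94 CPM in male 1 and 44.14 CPM in female 1, and 9 SM/J libraries lay above every LG/J library. With all libraries the log2 fold change was -0.30 ± 0.12 and not called (adjusted p = 0.0655, edgeR's quasi-likelihood test). Without those 2 libraries the difference was smaller but so was its error, and the gene was called 1.13-fold lower in LG/J (-0.18 ± 0.06, adjusted p = 0.0244). It was also called when only LG/J female 1 or only SM/J female 5 was left out. An antisense gene of few reads, Gm29491, shares 127 exonic bases with Tgfb2, and without a stated strand setting reads there cannot be told apart.

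Tgfb3 (ENSMUSG00000021253, chromosome 12, 86056744 to 86079041), the other abundant ligand gene, had a level of 33.29 CPM at the lowest, 92.64 CPM in the median and 160.1 CPM at the highest in LG/J, against 67.53, 109.8 and 220.5 CPM in SM/J. Both LG/J libraries numbered 1 and 1 more LG/J female lay below the lowest SM/J library, and the rest overlapped. The log2 fold change was -0.38 ± 0.20 and not called in the main fit or any alternative (adjusted p = 0.149, edgeR's quasi-likelihood test).

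Tgfb1 (ENSMUSG00000002603, chromosome 7, 25687002 to 25705077), the ligand gene best known from platelets and bone matrix, was close to the limit of detection. It had 10 to 24 reads per library in LG/J and 6 to 23 in SM/J. Its level was 0.4496 CPM at the lowest, 0.7304 CPM in the median and 1.418 CPM at the highest in LG/J, against 0.3172, 0.6675 and 1.05 CPM in SM/J. The strains overlapped, and no difference was detectable at this depth (log2 fold change 0.22 ± 0.17, adjusted p = 0.375, edgeR's quasi-likelihood test). Of the summed ligand level per kilobase, Tgfb1 made up a median of 0.491% in LG/J and 0.401% in SM/J, Tgfb2 52.5 and 51.1%, and Tgfb3 46.8 and 48.5%.

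Of the SMAD genes, 1 was called between strains, and the level of another, Smad7, varied widely. Smad3 (ENSMUSG00000032402, chromosome 9, 63646767 to 63757994), which encodes a receptor-regulated SMAD that binds DNA, had a level of 16.42 CPM at the lowest, 25.7 CPM in the median and 29.71 CPM at the highest in LG/J, against 21.39, 27.83 and 38.51 CPM in SM/J. The strains overlapped, and 7 SM/J libraries lay above every LG/J library. It was called 1.15-fold lower in LG/J (log2 fold change -0.21 ± 0.08, adjusted p = 0.0466, edgeR's quasi-likelihood test). That call was lost in 7 of 11 alternatives and in 15 of 32 fits without 1 library (LG/J males 4, 5, 7 and 8, LG/J females 1, 4, 5 and 8, SM/J males 2, 3, 4 and 8, and SM/J females 1, 3 and 4), where the adjusted p reached 0.0869. The alternatives that lost it were no filter, library size only, voom, close pairs summed, and the fits without the 6 Xist+Ddx3y libraries or without LG/J male 1 and female 1, also with close pairs summed. Without the 6 libraries the log2 fold change was -0.07 ± 0.08 (adjusted p = 0.576), the smallest of all.

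Smad2 (ENSMUSG00000024563, chromosome 18, 76241580 to 76305731), the other receptor-regulated SMAD of this pathway, had a level of 22.79 CPM at the lowest, 29.39 CPM in the median and 36.87 CPM at the highest in LG/J, against 21.57, 30.54 and 39.38 CPM in SM/J. The strains overlapped. It was the steadiest of the 10 in LG/J males, with a coefficient of variation of 7.22%. It was not the steadiest in LG/J females (17.9%), SM/J males (15.4%) or SM/J females (17.9%). The log2 fold change of Smad2 was -0.03 ± 0.08 (adjusted p = 0.824, edgeR's quasi-likelihood test). Smad4 (ENSMUSG00000024515, chromosome 18, 73639009 to 73703780), the shared partner of the receptor-regulated SMADs, had a level of 10.95 CPM at the lowest, 17.28 CPM in the median and 21.31 CPM at the highest in LG/J, against 10.8, 15.54 and 18.59 CPM in SM/J. The log2 fold change of 0.19 ± 0.09 was not called (adjusted p = 0.092, same test), though 7 LG/J libraries lay above every SM/J library. Leaving out LG/J female 8 gave an adjusted p of 0.0329.

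Smad7 (ENSMUSG00000025880, chromosome 18, 75367529 to 75395935) encodes the inhibitory SMAD, which the pathway induces and which blocks the type I receptor. Its level was 1.098 CPM at the lowest, 4.377 CPM in the median and 27.23 CPM at the highest in LG/J, against 2.749, 9.516 and 29.18 CPM in SM/J. It was the most variable of the SMAD genes in every group, with a coefficient of variation of 116% in LG/J males, 96.9% in LG/J females, 36.5% in SM/J males and 85.2% in SM/J females. The log2 fold change was -0.52 ± 0.42 with all libraries (adjusted p = 0.383, edgeR's quasi-likelihood test) and -0.98 ± 0.40 without LG/J male 1 and female 1 (adjusted p = 0.0607). It was called with limma voom and quality weights (-1.22 ± 0.36, adjusted p = 0.00738), where 3 of the 10 genes were called (Tgfbr1, Tgfbr3 and Smad7), against 37.5% of all genes. It was at 0.07 without the 6 Xist+Ddx3y libraries.

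**Figure D3:**
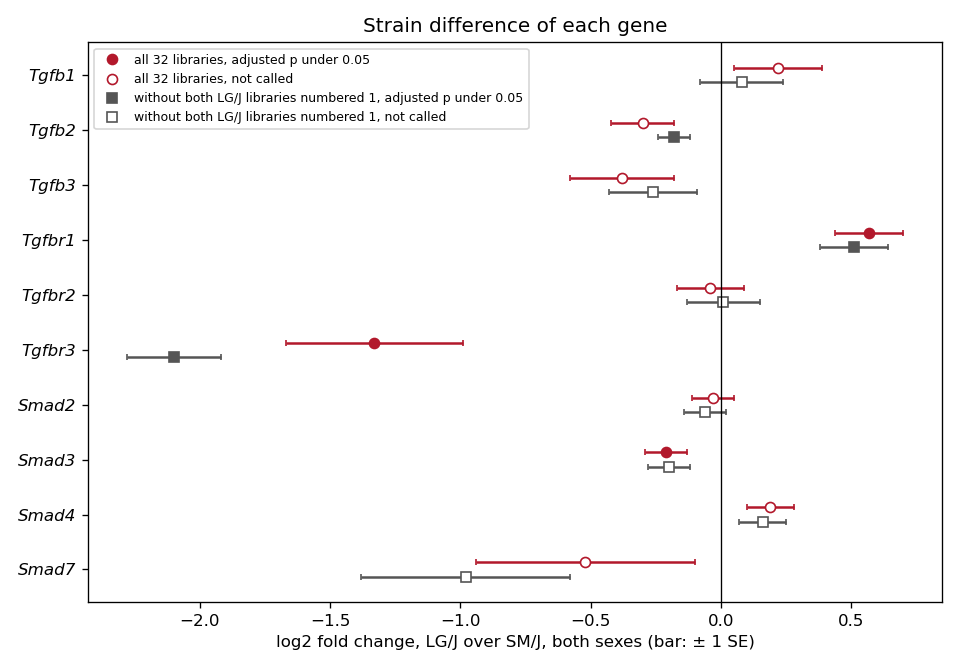
Log2 fold change of each gene, LG/J over SM/J over both sexes, with bars of 1 SE; circles use all 32 libraries and squares leave out LG/J male 1 and female 1, filled where the adjusted p is under 0.05. Tgfbr3 is at -1.33 with all libraries and at -2.10 without those 2, and Tgfbr1 at 0.57 and 0.51.

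Within males, 2 receptor genes were called between strains in the main fit. Of the 10 genes, 2 were called, Tgfbr1 higher and Tgfbr3 lower in LG/J males, against 22.3% of all genes, and the same 2 were called without LG/J male 1 and female 1, against 24.7%. Tgfbr1 was at 14.18 CPM at the lowest, 21.74 CPM in the median and 29.38 CPM at the highest in LG/J males, against 9.11, 12.35 and 13.64 CPM in SM/J males, and these ranges did not overlap. The share of all genes without overlap among males was not computed, and 8 against 8 libraries separate more easily than 16 against 16. The log2 fold change of Tgfbr1 in males was 0.85 ± 0.18 (adjusted p = 0.000922, edgeR's quasi-likelihood test). Tgfbr3 was at 12.4, 22.59 and 124.7 CPM in LG/J males, against 42.28, 87.52 and 133.1 CPM in SM/J males, where only male 1 of the LG/J males overlapped with SM/J males. Its log2 fold change was -1.45 ± 0.48 (adjusted p = 0.0267, same test). The Tgfbr3 call in males was lost without LG/J male 7 or LG/J male 8 (adjusted p up to 0.0537). It was also lost without the 6 Xist+Ddx3y libraries, and with close pairs summed. In both settings Tgfbr1 was then the 1 gene called, against 19.6% and 15.0% of all genes. DESeq2 called Tgfbr1 and Tgfbr3 in males, against 24.8% of all genes. The voom fit called 3 genes, against 34.9% of all genes, the third being Smad7, lower in LG/J males (-1.79 ± 0.52, adjusted p = 0.00795). By edgeR's quasi-likelihood test Smad7 in males was at -0.69 ± 0.60 and not called (adjusted p = 0.461).

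Within females 0 of the 10 genes were called by edgeR's quasi-likelihood test, against 13.4% of all genes, and 3 had an unadjusted p under 0.05 (Tgfb2, Tgfbr3 and Smad3). Here and below, the share of all genes with an unadjusted p under 0.05 is not given. The shares printed are of genes called after adjustment, so counts at unadjusted p have no background beside them. DESeq2 and limma voom each called 1, Tgfbr3, against 15.8% and 15.0% of all genes. Without LG/J male 1 and female 1, Tgfb2 and Tgfbr3 were called, against 15.9% of all genes. Tgfbr3 was at 13.12 CPM at the lowest, 22.02 CPM in the median and 145.3 CPM at the highest in LG/J females, against 57.19, 76.64 and 150.0 CPM in SM/J females. Female 1 was the highest library in each strain, and LG/J female 1 was the one LG/J female inside the SM/J range. With all libraries the log2 fold change was -1.21 ± 0.47 (adjusted p = 0.0914), and without LG/J male 1 and female 1 it was -2.03 ± 0.25 (adjusted p = 4.39e-07, edgeR's quasi-likelihood test). Leaving out only LG/J male 1 or only LG/J female 1 also led to a call of Tgfbr3. Without the 6 Xist+Ddx3y libraries, and with close pairs summed, 0 of the 10 were called in females. The share of all genes called in females is not given for these settings, so these counts have no background beside them. In both settings Tgfbr3 did not reach an unadjusted p under 0.05. Tgfbr3 was called in females in 6 of 11 alternatives, with an adjusted p of up to 0.319. Smad3 was called in females without LG/J male 8, LG/J female 3, SM/J female 6 or SM/J female 7. Tgfbr1 was at 10.91, 17.97 and 31.26 CPM in LG/J females, against 11.21, 16.49 and 21.55 CPM in SM/J females, which overlapped (log2 fold change 0.28 ± 0.18, adjusted p = 0.359, same test).

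The difference of the strain difference between sexes was tested directly. By edgeR's quasi-likelihood test 0 of the 10 genes were called, against 0.0062% of all genes, and 1 had an unadjusted p under 0.05. DESeq2 called 0 of the 10 (0.31% of all genes) and limma voom called 0 (1.59%). The gene with the unadjusted p under 0.05 was Tgfbr1, with a log2 difference of 0.56 ± 0.26 between its strain difference in males and in females (adjusted p = 0.552, and 0.137 to 0.838 over the alternatives). So the call of Tgfbr1 in males and not in females is not shown to be a difference between the sexes.

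Between the sexes no gene of the 10 was called by edgeR's quasi-likelihood test with all libraries. The 6 Xist+Ddx3y libraries stood in the male and female groups by their labelled sex. Over both strains 0 were called, against 3.46% of all genes, and 2 had an unadjusted p under 0.05. These were Tgfbr2 (log2 fold change, male over female, -0.34 ± 0.13, adjusted p = 0.161) and Smad3 (-0.19 ± 0.08, adjusted p = 0.177). DESeq2 called 0 (6.38% of all genes), and limma voom called 1, Tgfbr2 (adjusted p = 0.0377), against 10.7%. Without the 6 Xist+Ddx3y libraries edgeR called 0 (share of all genes not given), and Smad3 and Tgfbr2 again had an unadjusted p under 0.05. Tgfbr2 was at 52.39 CPM at the lowest, 63.48 CPM in the median and 85.05 CPM at the highest in LG/J males, against 55.98, 71.42 and 118.4 CPM in LG/J females. In SM/J it was at 43.05, 56.26 and 114.9 CPM in males, against 53.31, 81.94 and 133.5 CPM in females. The sexes overlapped in both strains. Male 1 of SM/J was the highest male, and without it Tgfbr2 was called over both strains (adjusted p = 0.035) and within SM/J (adjusted p = 0.0406).

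Within LG/J, 0 of the 10 genes were called between the sexes by edgeR (0.0496% of all genes), by DESeq2 (0.124%) and by limma voom (0.0868%), and 0 had an unadjusted p under 0.05 by edgeR. Within SM/J, 0 were called by edgeR, against 5.76% of all genes, and 3 had an unadjusted p under 0.05 (Tgfbr1, Smad3 and Tgfbr2). DESeq2 called 0 (8.54% of all genes), and limma voom called 2, Tgfbr1 and Tgfbr2, against 15.0%. Without the 6 Xist+Ddx3y libraries edgeR called 0 within either strain (share of all genes not given). Within SM/J, Tgfbr1 and Smad3 then had an unadjusted p under 0.05. Tgfbr1 was at 9.11 CPM at the lowest, 12.35 CPM in the median and 13.64 CPM at the highest in SM/J males, against 11.21, 16.49 and 21.55 CPM in SM/J females. The ranges overlapped, and the log2 fold change was -0.46 ± 0.18 (adjusted p = 0.151, edgeR's quasi-likelihood test).

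Ordered by group median, Tgfbr1 was highest in LG/J males (21.74 CPM), then LG/J females (17.97), SM/J females (16.49) and SM/J males (12.35), and the ranges of neighbours in this order overlapped. For Tgfbr3 the order was SM/J males (87.52 CPM), SM/J females (76.64), LG/J males (22.59) and LG/J females (22.02), where SM/J females and LG/J males overlapped only through LG/J male 1. For Smad3 SM/J females stood highest (30.43 CPM), followed by LG/J females (26.72), SM/J males (25.52) and LG/J males (24.94), with overlap at each step. For Tgfb2 the order was SM/J females (186.0 CPM), SM/J males (164.4), LG/J males (149.0) and LG/J females (146.0), again with overlap at each step.

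Around the 10 genes, 4 lists of other pathway genes were read in the same fit over both sexes. Their counts stand against 29.9% of all genes called with all libraries, 32.2% without LG/J male 1 and female 1, 23.8% without the 6 Xist+Ddx3y libraries and 22.1% with close pairs summed. Of 19 genes of the latent complex and its activation, 3 were called higher and 1 lower in LG/J, with a median log2 fold change of 0.02, equal to that of all genes. The 3 higher genes were 2 integrin chains and the surface carrier of latent TGF-beta. Itgb8, the chain of an integrin that activates latent TGF-beta, was at 3.749 CPM at the lowest, 6.088 CPM in the median and 11.28 CPM at the highest in LG/J, against 1.194, 2.169 and 3.492 CPM in SM/J. The strains did not overlap, as for 2.62% of all genes kept, and the log2 fold change was 1.61 ± 0.17 (adjusted p = 6.52e-09, edgeR's quasi-likelihood test). Its partner chain Itgav was at 29.42, 43.97 and 89.63 CPM in LG/J, against 23.66, 29.85 and 48.76 CPM in SM/J (0.69 ± 0.14, adjusted p = 0.000236). Lrrc32, which encodes the anchor that holds latent TGF-beta at the cell surface, was at 18.37, 33.93 and 53.73 CPM in LG/J, against 13.61, 18.85 and 28.08 CPM in SM/J (0.98 ± 0.13, adjusted p = 4.35e-07). Itgav and Lrrc32 overlapped between strains, and all 3 kept their call in 11 of 11 alternatives.

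Itgb1, a chain shared by many integrins, was called lower in LG/J (-0.27 ± 0.09, adjusted p = 0.0179, edgeR's quasi-likelihood test), and also in 7 of 11 alternatives. That call was lost without the 6 Xist+Ddx3y libraries (-0.13 ± 0.08, adjusted p = 0.274), with close pairs summed (-0.23 ± 0.10, adjusted p = 0.0959), with close pairs summed and LG/J male 1 and female 1 left out, and with library size only. The latent TGF-beta binding protein gene Ltbp1 (0.16 ± 0.42, adjusted p = 0.816) and Thbs1, whose product thrombospondin can activate latent TGF-beta (-0.18 ± 0.24, adjusted p = 0.621), were not called. Ltbp1 ran from 31.52 to 765.8 CPM in LG/J and from 88.64 to 735.7 CPM in SM/J. Of this list, 3 genes were called higher and 3 lower without LG/J male 1 and female 1, 4 and 0 without the 6 Xist+Ddx3y libraries, and 3 and 0 with close pairs summed.

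Of 13 co-receptor and activin branch genes, 12 were kept, and 2 were called higher and 1 lower in LG/J, with a median log2 fold change of 0.09. Eng, which encodes the co-receptor endoglin, a relative of betaglycan, was at 5.979 CPM at the lowest, 11.08 CPM in the median and 14.95 CPM at the highest in LG/J, against 10.68, 16.4 and 26.2 CPM in SM/J. The strains overlapped, and Eng was called lower in LG/J (-0.65 ± 0.10, adjusted p = 2.95e-06, edgeR's quasi-likelihood test) and in all 11 alternatives. Exons of Eng share 124 bases with Ak1 on the same strand, a gene of many more reads, so its counts are uncertain. The activin subunit genes Inhba (1.53 ± 0.58, adjusted p = 0.0449) and Inhbb (1.55 ± 0.52, adjusted p = 0.0223) were the 2 called higher. Inhba was at 1482 CPM in LG/J male 1 and 2073 CPM in LG/J female 1, against at most 710.2 CPM in the other 14 LG/J libraries and 415.9 CPM in SM/J. Without those 2 libraries neither was called (0.12 ± 0.40 and 0.24 ± 0.32), 0 genes of the list were called higher and 2 lower. In the other 2 settings the counts were 2 and 1 each. Fst, which encodes the activin antagonist follistatin, was not called (0.15 ± 0.22, adjusted p = 0.647).

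Of 23 inhibitor and turnover genes, 2 were called higher and 3 lower in LG/J, with a median log2 fold change of 0.03. The counts were 3 and 3 without LG/J male 1 and female 1, 3 and 2 without the 6 Xist+Ddx3y libraries, and 2 and 2 with close pairs summed. Ski, a nuclear repressor of SMAD complexes, was at 14.86 CPM at the lowest, 19.55 CPM in the median and 29.41 CPM at the highest in LG/J, against 20.92, 28.11 and 37.53 CPM in SM/J. The strains overlapped (-0.50 ± 0.09, adjusted p = 7.19e-05, edgeR's quasi-likelihood test). Smad6, the inhibitory SMAD better known for the bone morphogenetic protein branch, was at 1.694, 2.678 and 6.962 CPM in LG/J, against 2.326, 5.344 and 8.452 CPM in SM/J (-0.83 ± 0.19, adjusted p = 0.00125). Zfyve9, the endosomal anchor that brings SMAD2 and SMAD3 to the receptor (0.36 ± 0.09, adjusted p = 0.00203), and its relative Zfyve16 (0.35 ± 0.07, adjusted p = 0.000485) were the 2 called higher. These 4 genes were called in 11 of 11 alternatives, and Zfyve9 shares exonic bases with an antisense gene of few reads, as do Itgav, Ccn2 and Thbs1. Skil, a relative of Ski that the pathway induces, was not called (0.46 ± 0.26, adjusted p = 0.196). It was called without the 6 Xist+Ddx3y libraries (0.82 ± 0.28, adjusted p = 0.0374), and was at 175.9 CPM in LG/J male 1 and 191.7 CPM in LG/J female 1, above every other library. Pmepa1, an induced inhibitor, was not called either (-0.32 ± 0.38, adjusted p = 0.58).

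Of 36 genes known as targets of the pathway, 5 were called higher and 8 lower in LG/J, with a median log2 fold change of -0.18, against 0.02 over all genes. Without LG/J male 1 and female 1 the counts were 3 and 9, without the 6 Xist+Ddx3y libraries 5 and 4, and with close pairs summed 4 and 4. The median was -0.37 without LG/J male 1 and female 1, 0.24 without those 6 libraries and 0.07 with close pairs summed, so its sign was not stable. The list holds Smad7 and shares Skil and Pmepa1 with the inhibitors and Ltbp2 with the latent complex, and Acta2, Tagln, Postn, Col1a1, Col1a2 and Col3a1 are also among the fibroblast markers above.

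The called target genes with the smallest p were a matrix enzyme and 3 contractile genes. Has2, which encodes the main synthase of hyaluronan, was at 6.103 CPM at the lowest, 11.64 CPM in the median and 20.6 CPM at the highest in LG/J, against 2.51, 5.115 and 9.628 CPM in SM/J. The strains overlapped (1.06 ± 0.15, adjusted p = 1.08e-06, edgeR's quasi-likelihood test), and its antisense gene Has2os shares 182 exonic bases with it. The mean count was 136.9 for Has2os and 180.9 for Has2, and without a stated strand setting reads there cannot be told apart. Acta2, smooth muscle actin, was at 2.343, 25.89 and 217.3 CPM in LG/J, against 100.2, 273.3 and 739.2 CPM in SM/J (-2.70 ± 0.47, adjusted p = 3.51e-05). Tagln, an actin-binding protein, was at 2.096, 25.06 and 163.4 CPM in LG/J, against 37.06, 122.2 and 467.2 CPM in SM/J (-2.08 ± 0.47, adjusted p = 0.00104), and shares 65 exonic bases with the antisense gene Pcsk7. For the tropomyosin gene Tpm1 the log2 fold change was -1.07 ± 0.23 (adjusted p = 0.00049). All 4 genes were called in 11 of 11 alternatives. Acta2 and Tagln are themselves fibroblast markers. Of the markers in that list outside the target genes, Col5a2 (-0.77 ± 0.22, adjusted p = 0.00691) and Twist1 (-0.81 ± 0.12, adjusted p = 3.93e-06) were called lower, and Pdgfra was not called (0.70 ± 0.47, adjusted p = 0.281), by edgeR's quasi-likelihood test. Thy1 was called higher (2.57 ± 0.34, adjusted p = 4.31e-07, same test). Its levels were low, at 0.2884 to 1.43 CPM in LG/J and 0.0 to 0.3194 CPM in SM/J. The part of these markers in the target gene results was not tested.

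Ccn2, a matricellular growth factor, was at 152.7 CPM at the lowest, 593.7 CPM in the median and 1322 CPM at the highest in LG/J, against 167.7, 397.8 and 787.2 CPM in SM/J. It was called higher (0.73 ± 0.24, adjusted p = 0.0217, edgeR's quasi-likelihood test), but not without LG/J male 1 and female 1 (0.55 ± 0.23, adjusted p = 0.0709). Tgfbi, a TGF-beta induced matrix protein, was not called (-0.24 ± 0.25, adjusted p = 0.514).

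Within groups, the genes whose levels followed each of the 10 most closely were found by Pearson's r over 30 libraries, with group means subtracted and LG/J male 1 and female 1 left out. The r is a description, since these libraries share depth and composition. The search left out the 10 genes themselves, and for Smad7 also the other target genes listed above. Smad7 was closest to Plaur, the urokinase receptor gene (r = 0.98), and Tnfrsf12a (0.95). Tgfb3 was closest to Cped1 (0.91) and Abi3bp (0.90), Tgfb2 to Pknox2 (0.88) and Lrpap1 (0.80), and Tgfbr3 to Il6st (0.88) and Lcn2 (0.87). Tgfbr1 was closest to Prkcd (0.87) and Meis1 (0.85), and Tgfbr2 to C1qtnf1 and Gpc4 (0.86 each). Smad2 was closest to the chaperonin genes Cct5 and Cct7 (0.86 each), and Smad3 to Col5a2 and Vcl (0.85 each). Smad4 (Mgat2, 0.71) and Tgfb1 (Pla1a, 0.67) had no gene above these values among those searched.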

How the data were processed

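The data are 32 RNA-seq libraries, 8 per strain and sex, grouped by the sample titles. STAR 2.0.4b, featureCounts 1.45 (Subread) and the build GRCm38 are named per the submitters' processing notes; the sources used here give no annotation release and no strand setting. What the authors deposited were whole-number read counts per gene, CPM and RPKM. The deposited CPM equalled the count over the library total, and the deposited RPKM equalled CPM over gene length; all tests used the deposited counts. A symbol was found for 40254 of 41388 gene IDs, and unmatched IDs held 0.109% of counts.

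The filter on low counts was filterByExpr (16136 genes kept). Counts were scaled with TMM and fitted with edgeR 4.0.16 (quasi-likelihood, R 4.3.3), with robust dispersions and 1 mean per group over all 32 libraries. From this fit 7 contrasts were taken, with Benjamini-Hochberg adjustment over all genes kept. A log2 fold change is given ± SE. Levels are TMM-scaled CPM. The scripts were tested on simulated data.

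The alternatives were DESeq2 1.42.0, its size factors alone, library size only, no filter, a stricter filter (CPM of 1 in 8 libraries), limma 3.58.1 voom with quality weights, the replicate block, leaving out 1 library at a time, LG/J male 1 and female 1, or the 6 Xist+Ddx3y libraries, and close pairs summed. Leaving out LG/J male 1 and female 1 with close pairs summed was added after seeing the data. The 10 genes, the pathway and marker lists and the libraries to leave out were chosen with earlier results of these data known. The pathway genes named are up to 4 called genes per list with the smallest p, plus Ccn2, Tgfbi, Ltbp1, Thbs1, Eng, Fst, Inhba, Skil and Pmepa1; 1 other gene named by this rule is not reported here. The genes most like each of the 10 were the 2 with the highest r on log2 CPM, among genes whose mean log2 CPM was 3 or more. Predicted genes, pseudogenes, Riken clones, genes without a symbol and the 10 genes themselves were not searched. For Smad7 the target gene list was left out too. Promoter sequences are from RefSeq (GRCm38.p6), and no other sequence was used here.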

Additional observations from a re-analysis of the deposited data

Results flagged for a closer look

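In each group of 8 libraries, the gap between the highest or lowest library and its nearest neighbour was set against the range of the group (Dixon's test at the 95% level). Of 40 groups checked, 4 for each of the 10 genes, 7 had such a library. Chance flags about 1 in 20 groups when values are normal and groups are independent. The same 32 libraries recur for all 10 genes, so that rate does not apply to this count. All 7 were libraries numbered 1, in both strains and both sexes. Of the 7, 4 were Tgfb2 and Tgfbr3 in the LG/J libraries numbered 1. Tgfb2 was at 63.94 CPM in LG/J male 1, where the 7 remaining males lay at 144.5 to 167.2 CPM, and at 44.14 CPM in LG/J female 1, where the 7 remaining females lay at 121.6 to 162.8 CPM. Tgfbr3 was at 124.7 CPM in LG/J male 1, against 12.4 to 27.44 CPM in the other 7 males, and at 145.3 CPM in LG/J female 1, against 13.12 to 28.6 CPM in the other 7 females. Smad7 was at 21.84 CPM in LG/J male 1, against 1.098 to 9.516 CPM in the other 7.

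In SM/J, Tgfbr2 was at 114.9 CPM in male 1, against 43.05 to 77.08 CPM in the other 7 males. Tgfbr3 was at 150.0 CPM in SM/J female 1, against 57.19 to 87.68 CPM in the other 7 females.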

How the results depend on the processing

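Over both sexes, Tgfbr1 and Tgfbr3 kept direction and call in all 11 alternatives and all 32 fits without 1 library, and the count called ran from 2 to 4 in those fits. The count in males was 1 without the 6 Xist+Ddx3y libraries and 1 with close pairs summed, 3 with voom, and 1 to 2 when 1 library was left out. In females, 0 in the main fit, it was 2 without LG/J male 1 and female 1, also with close pairs summed, 1 each with library size only, voom and DESeq2, 2 with the replicate block, and 0 to 1 without 1 library. Between sexes over both strains it was 1 with voom and 0 to 1 without 1 library, and in SM/J 2 with voom and 0 to 1 without 1 library. Whether library numbers mark a shared source is not given, and not every same-numbered pair from different groups correlated over 0.1: r was -0.45 to 0.84, over 0.1 in 30 of 48 pairs, with a median of 0.14 against -0.01 for other pairs, and 7 of 32 libraries correlated best with their own number. With the replicate block the strain count over both sexes was 4, adding Tgfb2. The counts of this section stand without the share of all genes called, which is given above for some of the settings only.

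The genes whose log2 fold change changed sign were not called in the main fit. Without LG/J male 1 and female 1, Tgfbr2 was at 0.01, Ltbp1 at -0.28, Fst at -0.04 and Skil at -0.01. Without the 6 libraries, Tgfbr2 was at 0.06, Smad2 at 0.04, Smad7 at 0.07, Thbs1 at 0.08 and Pmepa1 at 0.63. With close pairs summed, Smad2 was at 0.01 and Pmepa1 at 0.08, and also without LG/J male 1 and female 1, Tgfbr2 was at 0.01, Ltbp1 at -0.12, Pmepa1 at 0.05 and Tgfbi at 0.05. With voom, Tgfbr2 was at 0.11, Ltbp1 at -0.42 and Fst at -0.11, and with the replicate block Tgfbr2 was at 0.01 and Ltbp1 at -0.3. Without 1 library, Tgfbr2 ran from -0.1 to 0.04 and Ltbp1 from -0.17 to 0.29. The cause of these changes was not tested. Tgfb1, at 6 to 24 reads, was removed by the stricter filter.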
